A study of Mus musculus with 4 samples.

Results

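This account concerns 10 genes that form the transcription elongation kinase P-TEFb, the 7SK ribonucleoprotein particle that holds P-TEFb inactive, and the related kinases CDK12 and CDK13 with their cyclin. They were chosen by symbol, as Rn7sk, Hexim1, Larp7, Mepce, Cdk9, Ccnt1, Ccnt2, Cdk12, Cdk13 and Ccnk, from the deposited gene annotation, and joined by Ensembl identifier to the count table. All 10 were found among the 54232 genes of the table, and all 10 passed the filter on low counts. The libraries came from RPP631, a single mouse line of small cell lung cancer (SCLC). The YKL group was cells kept for 48 h in 100 nM YKL, a compound named in the series title as a CDK7 inhibitor, and the DMSO group was cells kept for 48 h in the vehicle DMSO. Bulk RNA was sequenced from 2 libraries in each group. No label states which alleles RPP631 carries, or if the libraries of a group came from independent cultures. The p-values here reflect the library-to-library spread alone, which may be technical.

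P-TEFb is a pair of the kinase CDK9 with cyclin T1 or cyclin T2. It releases RNA polymerase II from its pause near promoters by phosphorylating the polymerase tail and the pausing factors DSIF and NELF. A large part of cellular P-TEFb is kept inactive on 7SK, an RNA made by RNA polymerase III. In that particle HEXIM1 blocks the kinase, MePCE caps the 5′ end of the RNA and LARP7 holds its 3′ end. CDK12 and CDK13, each paired with cyclin K, phosphorylate the same polymerase tail during elongation, and CDK12 is known for its role in the expression of DNA repair genes. CDK7, the target named for YKL, phosphorylates the polymerase tail at initiation and, in human cells, also the activation loop of CDK9.

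The gene on which the results turn is Rn7sk, so the ends of its RNA are shown. The annotated transcript (GENCODE M21, GRCm38) is 331 bases long, lies at chr9:78175303-78175633 on the minus strand, and is given in DNA letters. In the stretch from base 1 to base 100, capitals mark every match to GATC, a motif that occurs in the hairpin known as the landing site of HEXIM1. Which of the marked matches lie in that hairpin was not determined. In the stretch from base 272 to base 331, capitals mark the final run of T, the kind of end that LARP7 holds.
Rn7sk 5′ end: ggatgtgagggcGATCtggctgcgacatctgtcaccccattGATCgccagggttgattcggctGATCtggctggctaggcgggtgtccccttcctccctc
Rn7sk 3′ end: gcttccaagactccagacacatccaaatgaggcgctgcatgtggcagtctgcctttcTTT
The motif GATC occurred 3 times, at bases 13, 42 and 64, and all 3 fell in the first 100 bases.

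The RNA of the 7SK particle rose in YKL, while none of the 9 protein-coding genes was called. Rn7sk (ENSMUSG00000065037, annotated as misc_RNA) had 1528 and 2953 counts in the YKL libraries, against 504 and 472 counts in the DMSO libraries. As CPM, counts put on a common library size after TMM scaling, these were 49.9 and 91.7 in YKL and 15.07 and 14.98 in DMSO. Both YKL libraries lay far above both DMSO libraries, and they differed from each other more than the DMSO libraries did. The group levels were 70.8 ± 29.6 CPM in YKL and 15.02 ± 0.0635 CPM in DMSO (mean ± SD, n = 2 each). The difference was 4.71-fold, with a 95% interval of 2.960 to 7.496 (log2 fold change 2.24 ± 0.29, standard error), at an adjusted p = 0.0112 by edgeR's quasi-likelihood test with Benjamini-Hochberg adjustment over all 16749 genes tested. In that test 3.54% of all genes were called at an adjusted p under 0.05, 2.1% higher and 1.44% lower in YKL, and of the 10 genes described here 1 was called. Among the 351 genes called higher, Rn7sk ranked 57 by the size of its fold change. In bulk RNA, a change in the number of cells that carry a transcript and a change in its amount per cell cannot be told apart.

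**Figure D1:**
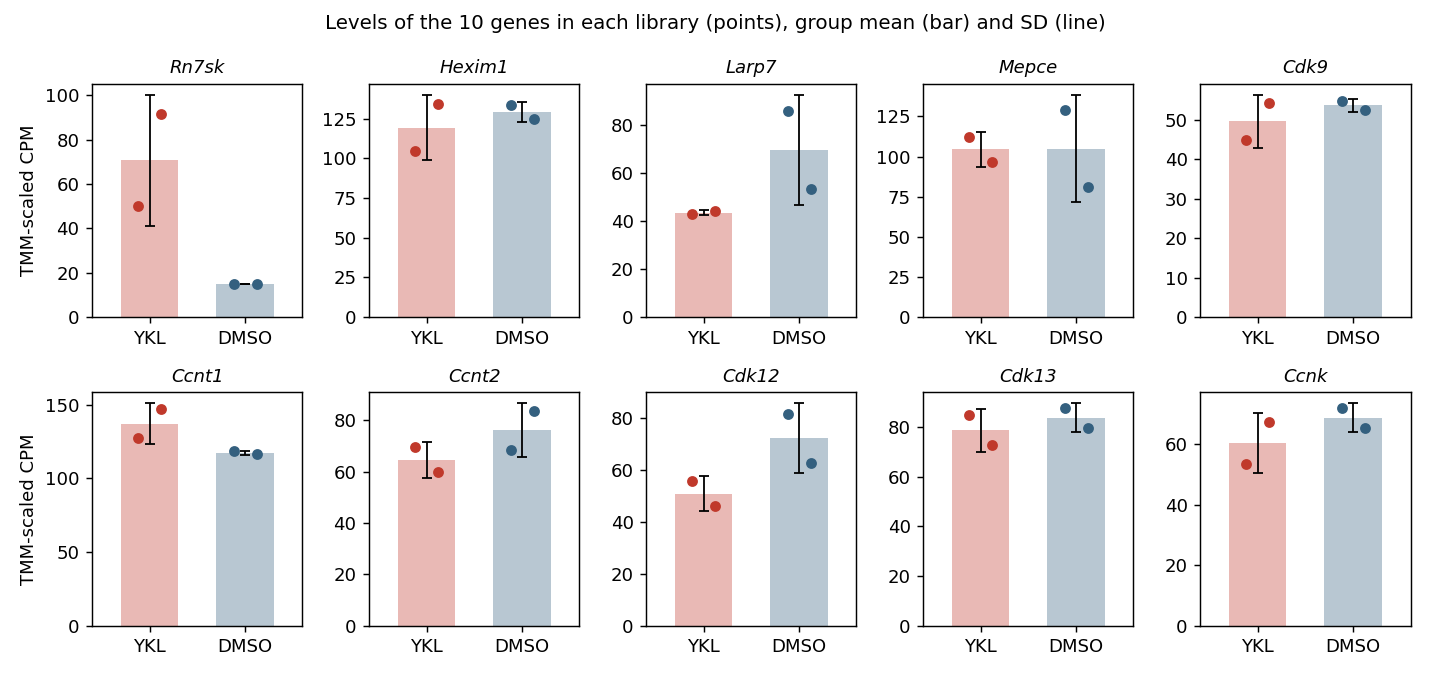
TMM-scaled CPM (vertical axes, each from 0) of the 10 genes in the YKL and DMSO groups, with libraries as points, the group mean as a bar and the SD as a line (n = 2 each). Rn7sk stands at 49.9 and 91.7 CPM in YKL and near 15 CPM in DMSO, whereas among the protein-coding genes the groups of Larp7, Ccnt1 and Cdk12 do not overlap and those of the other 6 do.

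Rn7sk was called, and higher in YKL, in each of the 12 alternative fits. In the 4 of these that leave out a library, here and below, the group with a single library is assumed to vary like the other group, whose pair alone gives the spread within a gene. Without YKL replicate 2, its highest library, the log2 fold change was 1.73 ± 0.31 (adjusted p = 0.0366, edgeR), and without YKL replicate 1 it was 2.61 ± 0.28 (adjusted p = 0.00154, edgeR). In both fits the spread specific to Rn7sk came from the DMSO libraries, which were closer together than the YKL libraries. As in all edgeR fits here, that spread was combined with a prior estimated over all genes. The authors' deposited table gives a log2 fold change of 1.86 and an adjusted p of 5.83e-12 for Rn7sk.

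The exons of Rn7sk shared no base with another gene of the table. The nearest tested gene on the side of its start, C920006O11Rik, begins 281 bases away on the other strand. It had 2.19 and 1.77 CPM in YKL against 4.54 and 3.78 CPM in DMSO (log2 fold change -1.07 ± 0.43, adjusted p = 0.195, edgeR). On the other side, Ick, a kinase gene 3196 bases away, had 50.7 and 65.9 CPM in YKL and 69.7 and 54.9 CPM in DMSO (log2 fold change -0.10 ± 0.21, adjusted p = 0.849, edgeR). Neither neighbour was called, and both had values below 0 where Rn7sk was positive.

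The 7SK RNA carries no poly(A) tail, and the sources used here do not say how RNA was selected for these libraries, so other untailed and short RNA classes are given beside it. They were chosen after the values of Rn7sk were seen. As CPM of all assigned counts, with no TMM scaling, Rn7sk had 51.2 and 89.6 in YKL and 14.7 and 15.2 in DMSO. All annotated snRNA genes together took 21.0 and 18.3 such CPM in YKL and 10.5 and 12.1 in DMSO, and the scaRNA genes took 4.70 and 3.46 in YKL and 1.78 and 2.03 in DMSO. In both of these classes each YKL library lay above each DMSO library, with ratios of group means of 1.74 and 2.14 against 4.71 for Rn7sk. The snoRNA genes took 28.8 and 26.2 CPM in YKL and 18.7 and 28.3 in DMSO, and the remaining misc_RNA genes took 4.59 and 4.70 in YKL and 4.74 and 6.66 in DMSO. For these classes the groups overlapped or lay the other way, with ratios of 1.17 and 0.816. Mitochondrial rRNA took 748 and 1277 CPM in YKL and 217 and 703 in DMSO. The ratio for mitochondrial rRNA was 2.20, with each YKL library above both DMSO libraries. Nuclear rRNA had 735 and 532 CPM in YKL and 451 and 575 CPM in DMSO, and mitochondrial tRNA had 35.3 and 52.6 CPM in YKL and 23.0 and 46.8 CPM in DMSO, with overlapping groups in both. Of the tested genes, 1 of 3 snRNA genes, 1 of 3 scaRNA genes and 0 of 23 snoRNA genes were called higher by edgeR, where 2.1% of all genes were, and none in these classes was called lower. The part of these shifts in the rise of Rn7sk was not tested.

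**Figure D2:**
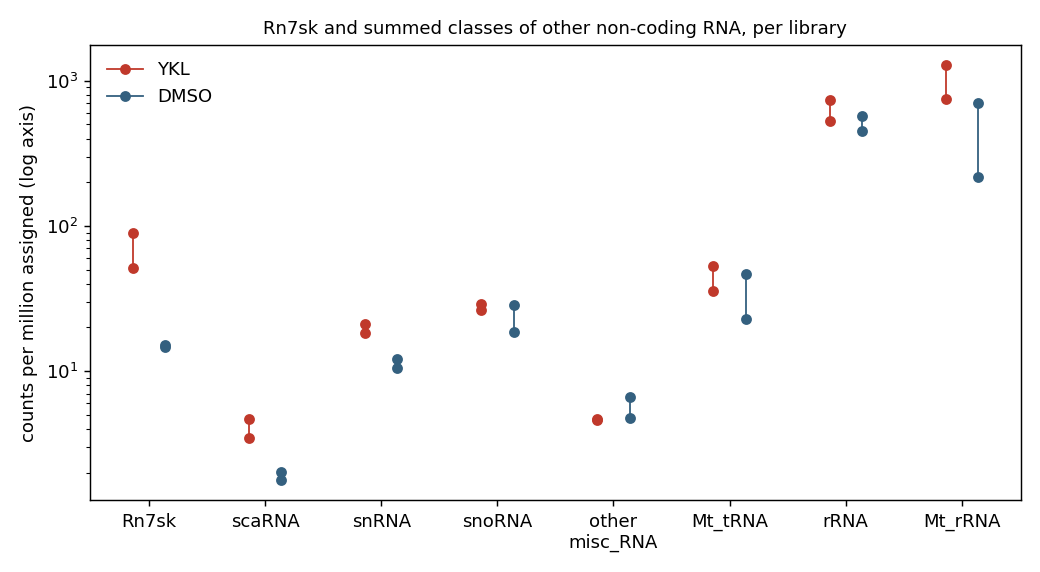
CPM of all assigned counts (log axis) of Rn7sk and of summed classes of other non-coding RNA in YKL and DMSO, with each library as a point and the libraries of a group joined. Rn7sk is separated by a ratio of 4.71 between group means, the snRNA and scaRNA classes by 1.74 and 2.14, and the snoRNA and Mt_tRNA groups overlap.

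Other short transcripts of RNA polymerase III were hardly counted in these libraries. The RNase MRP RNA gene Rmrp had 0 counts in every library, and the RNase P RNA gene Rpph1 had 0 and 2 counts in YKL and 0 and 1 in DMSO. The Y RNA gene Rny1 had 11 and 10 counts in YKL and 11 and 3 in DMSO. A shared change of such transcripts with Rn7sk could not be read from so few counts, and why they were so few was not tested.

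None of the genes for the protein partners of the 7SK RNA was called. Hexim1 (ENSMUSG00000048878, chromosome 11, 103116231 to 103119725), which encodes the inhibitor of P-TEFb, had 105 and 134 CPM in YKL and 134 and 125 CPM in DMSO. The groups overlapped, and the log2 fold change was -0.11 ± 0.19, with a 95% interval of -0.54 to 0.32 (adjusted p = 0.793, edgeR). Mepce (ENSMUSG00000029726, chromosome 5, 137781906 to 137787655), which encodes the capping enzyme, had 112 and 96.6 CPM in YKL and 129 and 81.3 CPM in DMSO. Both YKL values lay between the DMSO values, and the log2 fold change was -0.01 ± 0.24 (95% interval -0.54 to 0.53, adjusted p = 0.99, edgeR). Larp7 (ENSMUSG00000027968, chromosome 3, 127536714 to 127553349), whose protein is known to stabilise the RNA, had 42.8 and 44.0 CPM in YKL and 85.7 and 53.2 CPM in DMSO. Its YKL libraries lay close together and below both DMSO libraries, which stood far apart. The log2 fold change of Larp7 was -0.68 ± 0.24 (95% interval -1.22 to -0.14), and it was not called (adjusted p = 0.148, edgeR).

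Larp7 depended on which DMSO library was used. Without DMSO replicate 2 its log2 fold change was -1.02 ± 0.24 and it was called (adjusted p = 0.000576, edgeR), and without DMSO replicate 1 it was -0.29 ± 0.23 (adjusted p = 0.494, edgeR). The spread specific to Larp7 in these fits came from the YKL libraries, which lay close together, and was combined with the prior. It was also called without the filter on low counts (adjusted p = 0.0242, edgeR), but not by DESeq2 here (adjusted p = 0.0956). The authors' deposited table lists Larp7 with a log2 fold change of -0.62 and an adjusted p of 0.00467. There, 2 of the 10 genes, Rn7sk and Larp7, have an adjusted p under 0.05, against 27.8% of all genes in the authors' deposited table.

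Per kb of annotated exon, the level of Rn7sk was 5.02 and 7.22 times that of Hexim1 in YKL and 1.19 and 1.27 times in DMSO. Against Larp7 the ratio was 8.32 and 14.9 in YKL and 1.26 and 2.01 in DMSO. For both partners each YKL library lay above each DMSO library. These ratios carry the rise of Rn7sk itself and are given without a test. They set an untailed RNA against mRNAs under an unknown RNA selection, so their size may not reflect amounts in the cells.

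Promoter sequences of 8 of the 10 genes were matched in RefSeq (GRCm38.p6), each from 250 bases before to 50 bases after the start. Those of Hexim1 and Larp7 are shown because their proteins bind the RNA that rose. Capitals mark the GC box (GGGCGG) and the CCAAT box (CCAAT) on either strand. The Hexim1 window is chr11:103116075-103116374 on the plus strand and the Larp7 window is chr3:127553300-127553599 on the minus strand.
Hexim1 promoter: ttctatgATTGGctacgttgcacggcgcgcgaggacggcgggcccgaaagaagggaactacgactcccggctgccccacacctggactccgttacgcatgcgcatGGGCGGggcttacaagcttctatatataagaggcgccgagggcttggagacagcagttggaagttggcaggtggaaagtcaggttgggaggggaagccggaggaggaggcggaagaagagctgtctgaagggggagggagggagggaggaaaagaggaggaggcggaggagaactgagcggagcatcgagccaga
Larp7 promoter: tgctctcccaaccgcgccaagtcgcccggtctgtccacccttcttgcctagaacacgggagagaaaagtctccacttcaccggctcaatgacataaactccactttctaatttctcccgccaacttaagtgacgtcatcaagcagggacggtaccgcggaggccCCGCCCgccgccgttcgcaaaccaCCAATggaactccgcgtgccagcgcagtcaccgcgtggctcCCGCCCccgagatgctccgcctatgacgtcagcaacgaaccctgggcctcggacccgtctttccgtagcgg
Hexim1 held 1 GC box and 1 CCAAT box, and Larp7 held 2 and 1. The GC box occurred for 8 of the 8 matched genes, against 35.7% of all 32851 windows of the same length. The CCAAT box occurred for 5 of the 8, Hexim1, Larp7, Cdk9, Ccnt2 and Ccnk, against 37.4% of all windows. A gene counted when any of its windows held the motif. The share of genes is therefore not the same measure as the share of windows. Exact matches to the TATA box (TATAAA), the E box (CACGTG) and an NRF1-type motif were searched on both strands. None occurred in the windows of the 8 genes, against 13.6%, 7.15% and 0.971% of all windows. Looser forms of these motifs were not searched. The Hexim1 window shown holds an unmarked run of alternating T and A that resembles a TATA box without matching TATAAA. The lack of an exact match therefore does not show that a promoter lacks such an element.

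None of the P-TEFb subunit genes was called. Cdk9 (ENSMUSG00000009555, chromosome 2, 32705784 to 32713076), which encodes the kinase, had 44.9 and 54.4 CPM in YKL and 54.9 and 52.5 CPM in DMSO. The groups overlapped, and the log2 fold change was -0.11 ± 0.19 (95% interval -0.54 to 0.32, adjusted p = 0.794, edgeR). Ccnt1 (ENSMUSG00000011960, chromosome 15, 98538689 to 98570923), which encodes cyclin T1, had 128 and 147 CPM in YKL and 118 and 117 CPM in DMSO. Its groups did not overlap, but the log2 fold change of 0.22 ± 0.18 was not called (95% interval -0.18 to 0.63, adjusted p = 0.519, edgeR). Ccnt2 (ENSMUSG00000026349, chromosome 1, 127774164 to 127808061), which encodes cyclin T2, had 69.6 and 59.7 CPM in YKL and 68.6 and 83.5 CPM in DMSO. Its groups overlapped, and the log2 fold change was -0.23 ± 0.19 (95% interval -0.67 to 0.20, adjusted p = 0.541, edgeR).

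Cyclin T1 transcripts outnumbered those of cyclin T2 in every library. Per kb of exon the ratio of Ccnt1 to Ccnt2 was 2.47 and 3.32 in YKL and 2.33 and 1.88 in DMSO. The value in each YKL library was above that in each DMSO library, and no test was made of it. Ccnt1 shares 695 exonic bases, 7.59% of its exon length, with 9330020H09Rik, an antisense gene that was itself higher in YKL. That antisense gene had 128 and 178 counts in YKL and 38 and 43 in DMSO (log2 fold change 1.95 ± 0.45, adjusted p = 0.0474, edgeR). The strand setting of the counting is not given in the sources used here, and the part of those reads in the level of Ccnt1 was not tested. Cdk9 shares exonic bases with Mir2861 and Mir3960, which had 0 counts in every library, and none of the other genes shared exonic bases.

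Hexim1 and Cdk9, the inhibitor and the kinase, kept nearly the same proportion. Per kb, Hexim1 was 3.08 and 3.25 times Cdk9 in YKL and 3.21 and 3.13 times Cdk9 in DMSO. The ratio in the YKL libraries spanned the ratio in the DMSO libraries. Both genes were lowest in YKL replicate 1 among the 4 libraries. As a description over these 4 libraries, which share their scaling, the tested genes whose centred log2 CPM lay nearest to that of Hexim1 were 1110004F10Rik, Imp3 and Krt7, at distances of 0.019, 0.0318 and 0.0323 among 11542 genes with at least 5 CPM on average. The genes nearest to Rn7sk were Gm26917, 4930513N10Rik and Pcsk6, at distances of 0.351, 0.472 and 0.59. Gm26917, annotated as a lincRNA, had 135 and 262 CPM in YKL and 54.1 and 52.4 CPM in DMSO. It repeats the wide gap between the YKL libraries that Rn7sk shows.

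Cdk12 RNA showed a lower level that did not pass the test, and Cdk13 and Ccnk RNA did not differ beyond the spread between libraries. Cdk12 (ENSMUSG00000003119, chromosome 11, 98203059 to 98278504) had 55.6 and 46.0 CPM in YKL and 81.6 and 62.6 CPM in DMSO. The YKL libraries lay below both DMSO libraries, and the log2 fold change was -0.51 ± 0.21 (95% interval -0.97 to -0.04, adjusted p = 0.202, edgeR). Without DMSO replicate 2 it was called (log2 fold change -0.72 ± 0.24, adjusted p = 0.0253, edgeR), and without DMSO replicate 1 it was -0.30 ± 0.23 (adjusted p = 0.472, edgeR). Cdk13 (ENSMUSG00000041297, chromosome 13, 17710315 to 17805097) had 84.8 and 72.6 CPM in YKL and 87.9 and 79.6 CPM in DMSO, with a log2 fold change of -0.09 ± 0.18 (95% interval -0.50 to 0.32, adjusted p = 0.837, edgeR). Ccnk (ENSMUSG00000021258, chromosome 12, 108179579 to 108203359), which encodes cyclin K, had 53.5 and 67.5 CPM in YKL and 72.2 and 65.5 CPM in DMSO, with a log2 fold change of -0.19 ± 0.20 (95% interval -0.62 to 0.25, adjusted p = 0.644, edgeR). For both of these genes the groups overlapped. Per kb, the ratio of Cdk13 to Cdk12 was 1.33 and 1.38 in YKL and 0.939 and 1.11 in DMSO, so that Cdk13 was the more abundant in YKL and the 2 were about even in DMSO.

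**Figure D3:**
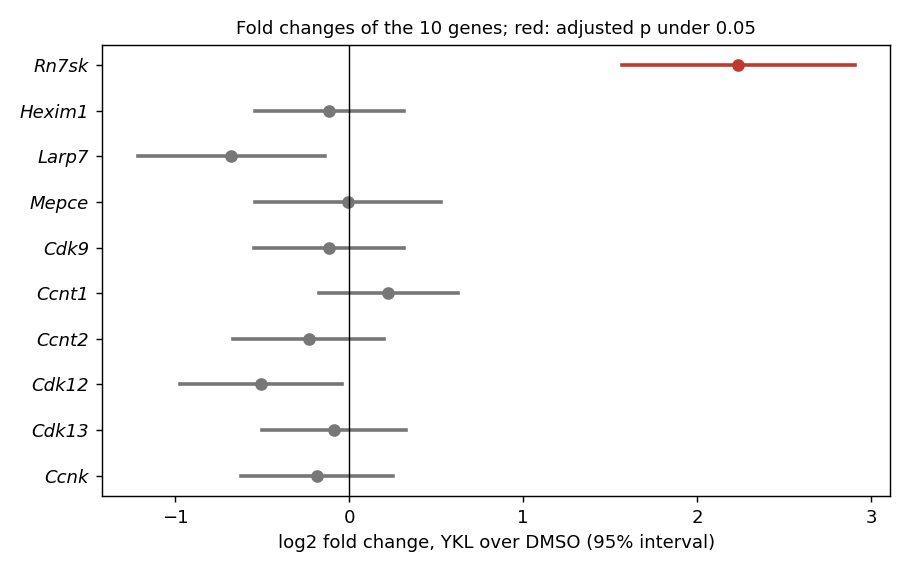
Log2 fold change of YKL over DMSO (horizontal axis) for the 10 genes, with 95% intervals from edgeR's fit (lines) and called genes in red. Only Rn7sk, at 2.24, is called, and the 9 protein-coding genes lie between -0.68 and 0.22.

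Over the 9 protein-coding genes the log2 fold changes ran from -0.68 to 0.22, with a median of -0.11, beside a median of -0.000136 over all genes tested. Of the 9, 8 had values below 0, as had 50.01% of all genes. For 4 of the 10 genes, Rn7sk, Larp7, Ccnt1 and Cdk12, the YKL and DMSO libraries did not overlap, an arrangement found in 52.3% of all genes tested. That share is no larger than the background. At an unadjusted p under 0.05 there were 3 of 10, Rn7sk, Larp7 and Cdk12, against 21.2% of all genes. DESeq2 called 1 of the 10, Rn7sk, against 10.1% of the genes it adjusted.

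The order of the levels within a library is given per kb of annotated exon, which joins the exons of all isoforms. Rn7sk RNA has no poly(A) tail and the RNA selection is not known. Its place beside the mRNAs is thus one of counts and may not reflect amounts in the cells. In YKL Rn7sk stood first at 214 ± 89.3 CPM per kb (mean ± SD, n = 2), followed by Hexim1 at 34.2 ± 5.92, Mepce at 29.4 ± 3.13, Ccnk at 19.9 ± 3.25, Larp7 at 18.4 ± 0.367 and Ccnt1 at 14.99 ± 1.49. Cdk9 at 10.8 ± 1.47, Cdk13 at 5.85 ± 0.639, Ccnt2 at 5.24 ± 0.57 and Cdk12 at 4.33 ± 0.577 CPM per kb came last. In that order Hexim1 and Mepce, Ccnk and Larp7, and Cdk13 and Ccnt2 had overlapping libraries and could not be ranked. In DMSO the order was Rn7sk at 45.4 ± 0.192 CPM per kb, Hexim1 at 37.0 ± 1.80, Mepce at 29.6 ± 9.44, Larp7 at 29.4 ± 9.71, Ccnk at 22.6 ± 1.54, Ccnt1 at 12.8 ± 0.139 and Cdk9 at 11.7 ± 0.368. Cdk13 at 6.22 ± 0.433, Ccnt2 at 6.16 ± 0.852 and Cdk12 at 6.15 ± 1.14 CPM per kb followed and could not be told apart. Hexim1, Mepce, Larp7 and Ccnk overlapped from each to the next in DMSO. By RNA level, Hexim1, Mepce, Larp7 and Ccnk thus stood above Ccnt1 and Cdk9, and those above Cdk13, Ccnt2 and Cdk12, in both groups.

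**Figure D4:**
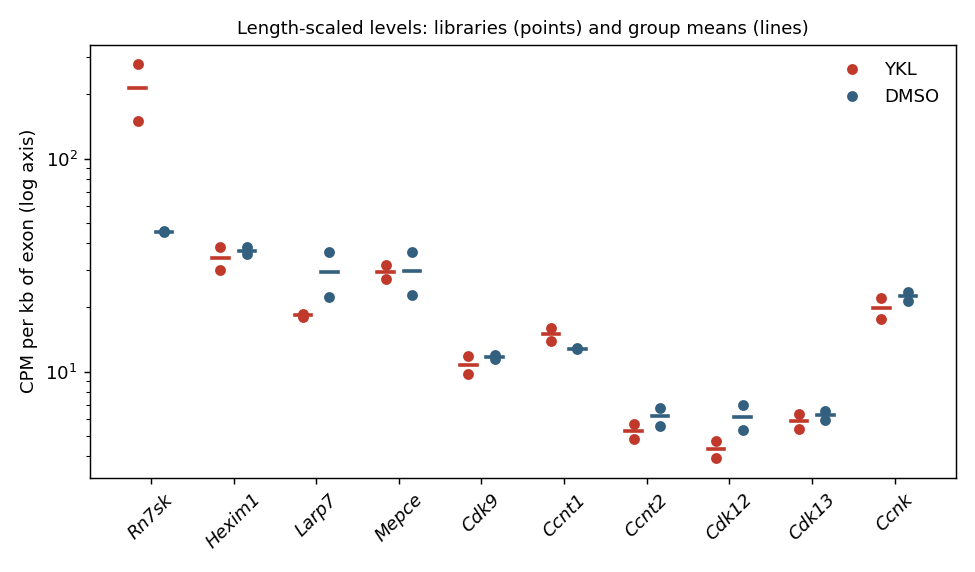
CPM per kb of annotated exon (log axis) of the 10 genes in YKL and DMSO, with libraries as points and group means as lines. In DMSO Rn7sk at 45.4 lies just above Hexim1 at 37.0, and in YKL it reaches 214, whereas Ccnt2, Cdk12 and Cdk13 are lowest in both groups. Rn7sk RNA is untailed and the RNA selection is not known, so its height beside the mRNAs may not reflect amounts in the cells.

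The wider pathway was described with 9 lists of genes, chosen with earlier results of these data known. Together they held 100 tested genes, of which 3 rose, 2 fell and 95 were not called, beside 3.54% called among all genes. Counts by list at an unadjusted p under 0.05 stand beside 21.2% of all genes, and those by DESeq2 beside 10.1%. The median log2 fold change over the 100 was -0.02.

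Among the genes of 8 other proteins that bind 7SK, 1 fell, 0 rose and 7 were not called, beside 3.54% called among all genes. Their median log2 fold change was -0.16. The gene that fell was Hnrnpa1, which encodes a splicing factor that binds 7SK RNA freed of P-TEFb. It had 131 and 124 CPM in YKL and 227 and 225 CPM in DMSO (log2 fold change -0.82 ± 0.17, adjusted p = 0.0379, edgeR), with no overlap of the groups. Its call was lost without either YKL library (adjusted p = 0.205 and 0.265, edgeR), with total count scaling (0.0551) and without the robust prior (0.0596). Hnrnpa1 is known to have near-identical pseudogene copies, so its counts are uncertain where reads could be split among them. Hexim2, the paralogue of Hexim1, averaged 10.5 ± 0.775 CPM in YKL and 9.41 ± 0.518 CPM in DMSO (SD, n = 2 each) and was not called (log2 fold change 0.15, adjusted p = 0.83, edgeR).

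Of 9 recruiters and releasers of P-TEFb, 3 had an unadjusted p under 0.05 by edgeR, against 21.2% of all genes. Neither edgeR nor DESeq2 called any of the 9. The most abundant were the nucleolar protein gene Ncl, at 742 and 773 CPM in YKL and 811 and 558 CPM in DMSO, and Trim28, at 560 and 726 CPM in YKL and 654 and 627 CPM in DMSO. Named after their values were seen, the bromodomain protein genes Brd2 and Brd3 had log2 fold changes of 0.63 and 0.61. Neither was called (adjusted p = 0.0998 and 0.0907, edgeR). Of 9 genes of the super elongation complex, which carries active P-TEFb, edgeR called 0, with 0 at an unadjusted p under 0.05, and DESeq2 called 0. Its scaffold gene Aff4 had 371 and 408 CPM in YKL and 488 and 445 CPM in DMSO, and Eaf1 had 198 and 198 CPM in YKL and 172 and 170 CPM in DMSO. Neither was called (adjusted p = 0.448 and 0.526, edgeR).

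The pausing factors that P-TEFb phosphorylates were not called either. Of 6 genes for DSIF and NELF, edgeR called 0, with 1 at an unadjusted p under 0.05, against 21.2% of all genes. DESeq2 called 1 of the 6 higher, where it called 10.1% of all the genes it adjusted. Supt5, the large DSIF subunit, had 201 and 248 CPM in YKL and 200 and 235 CPM in DMSO, and Nelfcd had 150 and 162 CPM in YKL and 137 and 154 CPM in DMSO. The gene called by DESeq2 was the NELF subunit gene Nelfe, singled out once its value was known, whose log2 fold change was 0.69 (adjusted p = 0.0753 by edgeR). Of 11 genes of the PAF1 complex and other elongation factors, edgeR called 0, with 1 at an unadjusted p under 0.05, and DESeq2 called 0. Ssrp1 and Supt6, the most abundant, had log2 fold changes of -0.17 and -0.13.

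Of 13 genes for the RNA polymerase II tail, its phosphatases and its binding proteins, 2 rose, 0 fell and 11 were not called. Among all genes 3.54% were called. Polr2a, whose product carries the tail that these kinases phosphorylate, had 1477 and 1760 CPM in YKL and 726 and 720 CPM in DMSO (log2 fold change 1.16 ± 0.19, adjusted p = 0.0197, edgeR). Rprd1a, which encodes a protein that binds the tail, had 53.1 and 50.04 CPM in YKL and 23.7 and 30.3 CPM in DMSO (log2 fold change 0.94 ± 0.21, adjusted p = 0.0431, edgeR). The call of Polr2a was lost without YKL replicate 2 (adjusted p = 0.13, edgeR), and that of Rprd1a without any 1 of DMSO replicate 1, YKL replicate 1 and YKL replicate 2 (adjusted p = 0.0518 to 0.229, edgeR), with total count or upper quartile scaling, and without the robust prior. Of 13 genes for the CDK-activating kinase, other CDKs and cyclins, 3 had an unadjusted p under 0.05 by edgeR, against 21.2% of all genes. Among these 13 genes edgeR called 0 and DESeq2 called 1 lower, against 10.1% of all the genes DESeq2 adjusted. Cdk16 and Cdk19, the most abundant of them, had log2 fold changes of -0.16 and -0.17. Both of the next genes were picked with their values known. Cdk7, the named target of YKL, had 10.97 and 11.6 CPM in YKL and 21.2 and 17.4 CPM in DMSO (log2 fold change -0.78 ± 0.27, adjusted p = 0.138, edgeR), with no overlap of the groups and no call. Ccnl2, which encodes cyclin L2, was the gene that DESeq2 called, and it had 69.2 and 39.6 CPM in YKL and 84.1 and 123 CPM in DMSO (adjusted p = 0.0248 by DESeq2 and 0.143 by edgeR).

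For 2 lists tied by name to these kinases, the counts of calls were small and are to be read beside the 3.54% called among all genes. Of 17 tested genes reported to depend on CDK12 or CDK13, 1 fell, 0 rose and 16 were not called, with a median log2 fold change of 0.03. The gene that fell was the Fanconi anaemia gene Fancd2, with 29.2 and 27.7 CPM in YKL and 53.9 and 57.0 CPM in DMSO (log2 fold change -0.96 ± 0.19, adjusted p = 0.0322, edgeR). Its call was lost without YKL replicate 1 (adjusted p = 0.162, edgeR), without YKL replicate 2 (0.205), with total count scaling (0.0556) and without the robust prior (0.0503). The end of Fancd2 overlaps that of Fancd2os on the opposite strand, whose reads could not be told apart without a known strand setting. In these genes edgeR called 4 without the filter on low counts and 0 without either YKL library. DESeq2 called 4, which are named with their values known: Atm and Fancm higher, Fancd2 and Fanci lower, where it called 10.1% of all the genes it adjusted. Of 14 short-lived transcripts known to be sensitive to CDK9 inhibition, 1 rose, 0 fell and 13 were not called, with a median of -0.03. The gene that rose was the early response factor Klf10, with 165 and 177 CPM in YKL and 81.3 and 74.9 CPM in DMSO (log2 fold change 1.13 ± 0.18, adjusted p = 0.0173, edgeR). Its call was lost without YKL replicate 1 (adjusted p = 0.0594, edgeR) and without YKL replicate 2 (adjusted p = 0.0979, edgeR). DESeq2 called 1 of the 14 higher, Klf10, and 1 lower. The lower one was Klf6, a related transcription factor gene singled out from its value, with a log2 fold change of -0.75 (adjusted p = 0.0368 by DESeq2 and 0.0855 by edgeR).

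**Figure D5:**
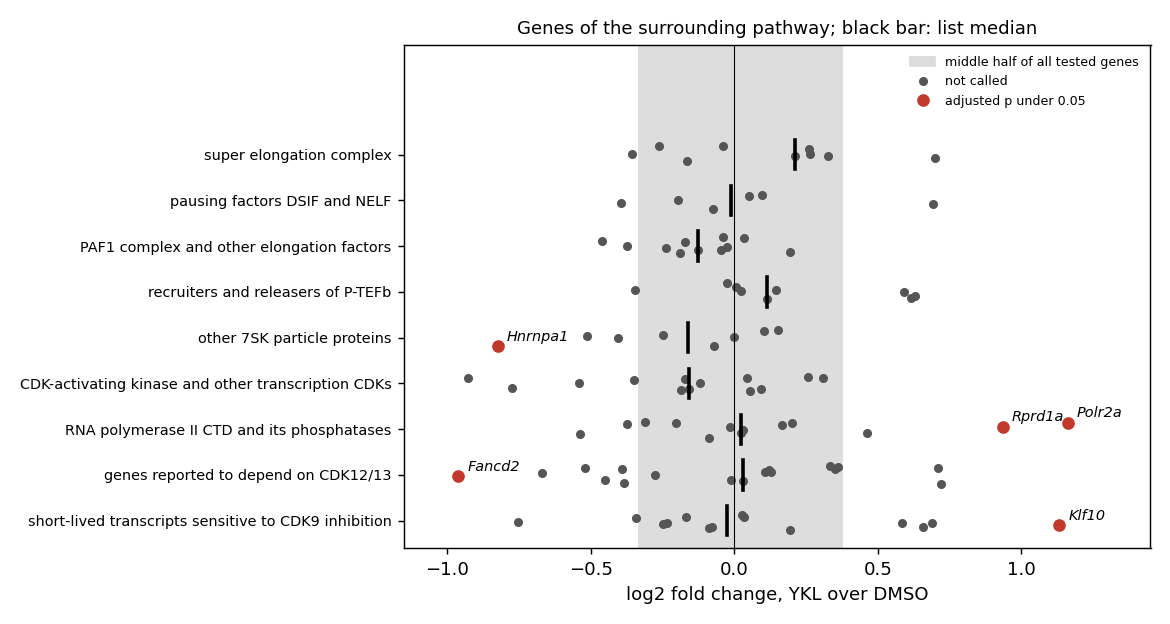
Log2 fold change of YKL over DMSO (horizontal axis) for the tested genes of the 9 pathway lists, with genes called by edgeR in red, list medians as black bars and the interquartile range of all tested genes shaded. The 5 called genes, Hnrnpa1, Polr2a, Rprd1a, Fancd2 and Klf10, lie outside the shaded range from -0.33 to 0.37.

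Across the series, libraries held 29817387 to 34189709 counts assigned to genes, and the DMSO libraries differed from each other more than the YKL libraries did (chi-square per degree of freedom 37.1 in YKL and 86.6 in DMSO). All 10 neuroendocrine SCLC markers were above 1 CPM in every library. Fibroblast markers summed to 20.4 to 50.6 CPM in YKL and 15.2 to 28.3 CPM in DMSO, most of it from Pdgfra, with 1 of 8 above 1 CPM in all libraries. Leukocyte markers summed to 5.59 to 8.88 CPM in YKL and 3.38 to 5.52 CPM in DMSO, with Cd3e at 0 counts. Endothelial markers summed to 44.2 to 62.3 CPM in YKL and 56.3 to 75.2 CPM in DMSO, most of it from Vwf.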

How the data were processed

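RNA of RPP631 cells was sequenced, with 2 YKL and 2 DMSO libraries. The submitters' processing notes name STAR 2.5.2b, featureCounts, DESeq2 and the build mm10. The authors deposited unnormalised counts for each gene, with exon positions and lengths. A deposited table of the authors' DESeq2 comparison holds a mean signal, a log2 fold change and its error, a test score, p-values and adjusted p-values. It was used only where it is named.

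All genes were tested together with edgeR 4.0.16 (R 4.3.3) from the counts (filterByExpr with a minimum count of 10 and a minimum total of 15, TMM scaling, quasi-likelihood test with a robust prior, 2 residual degrees of freedom). The prior draws the spread of each gene towards that of the other genes. The total degrees of freedom had a median of 9.74. Standard errors are the absolute log2 fold change over the square root of F, and 95% intervals use the test's degrees of freedom. Levels are TMM-scaled CPM. The common biological coefficient of variation was 25.0%. Alternatives were 3 other scalings, 2 other filters, a block for the replicate number, a prior that is not robust, each library left out, and DESeq2 1.42.0. The tests were tried on simulated data first. There edgeR recovered 31.6% of 2-fold and 76.8% of 4-fold changes, with 4.76% false calls. DESeq2 recovered 36.4% and 78.8%, with 13.4% false calls. A gene that was not called may therefore still have changed. Genes and lists were chosen with earlier results of these data known. Besides the 10 genes, the text names called list members, or the 2 most abundant where none was called, and others only as said.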

Additional observations from a re-analysis of the deposited data

How the results depend on the processing

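The call and direction of Rn7sk held in all 12 alternatives. Instead of 593 genes in all, 169 were called with total count scaling, 331 with upper quartile scaling, 1740 without the filter, 1387 with the replicate block, 236 without the robust prior, 1460 by DESeq2 and 71 to 2453 with 1 library left out. Of the 10 genes, 2 were called without the filter and 1 to 3 with 1 library left out. Of the list genes, instead of 5, 2 were called with total count scaling, 11 without the filter, 9 with the replicate block, 2 without the robust prior, 11 by DESeq2 and 0 to 16 with 1 library left out. Larp7 was called without the filter (log2 fold change -0.71). With 1 library left out the log2 fold change ran from -1.02 to -0.29 for Larp7, -0.72 to -0.30 for Cdk12, -0.34 to 0.36 for Mepce, -0.31 to 0.056 for Hexim1, -0.26 to 0.0225 for Cdk9 and -0.20 to 0.0151 for Cdk13. The sign of Mepce also turned with total count scaling (0.0102), upper quartile scaling (0.0223), the stricter filter (0.00261) and the replicate block (0.0259). The cause of these shifts was not tested. Deviations of same-numbered libraries, in 2 pairs, had a correlation of 0.132 taken across genes. The labels do not tie the libraries of a pair to each other. The highest over the lowest mean level among the protein-coding genes was 6.79 per kb and 2.46 without length scaling. With 1 library left out, the spread within a gene came from the other group's pair, combined with the prior over all genes. With 2 libraries a group, the unadjusted intervals of the 9 protein-coding genes allow changes in either direction, except those of Larp7 and Cdk12, which lie below 0.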
